A study of Mus musculus with 32 samples.

Results

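The BMP ligands *Bmp2*, *Bmp4*, *Bmp6* and *Bmp7*, the secreted BMP modulator *Bmper*, the ID genes *Id1*, *Id2*, *Id3* and *Id4*, and the inhibitory SMAD gene *Smad6* were followed in mouse embryonic stem (mES) cells that were driven toward primitive endoderm (PrE). The 10 genes were taken by symbol from a table of 54233 rows. Each of them was among the 15227 genes that had enough reads for testing. RNA-seq was measured at 8 time points (0, 2, 4, 8, 16, 24, 48 and 96 h) with 4 replicates each, 32 samples in all. The cells were of the KH2 line, strain C57BL/6, and all carried the transgene TRE:GATA6-DSREd2, which doxycycline (Dox) switches on through a TET-responsive element and which encodes GATA6, a transcription factor of PrE. Cells at 0 h had no Dox and were kept in 2i medium with LIF, which holds inhibitors of MEK and GSK3. Cells at 2, 4 and 8 h were in serum medium with LIF and 1 µg/mL Dox, and cells at 16, 24, 48 and 96 h had 12 h of Dox in that medium followed by serum medium without Dox. Because the medium was switched when Dox was added, the parts of medium and Dox in any difference from 0 h cannot be told apart. The study describes its replicates as independent but does not say what made up a replicate of this time course, and p-values measure only the spread between these samples.

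BMP ligands are secreted dimers that bind type I and type II receptor kinases, which phosphorylate SMAD1, SMAD5 and SMAD9. These SMADs join SMAD4 and switch on target genes, among which the ID genes and *Smad6* are the most widely used readouts. ID proteins lack a DNA-binding domain and hold E proteins away from DNA, and in mES cells they are known as the genes through which BMP, together with LIF, keeps cells from neural differentiation. SMAD6 blocks the receptor and SMAD step and so forms a negative feedback loop.

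The samples held 3190108 to 12301732 reads on genes (median 8870662.5). Values are given as normalized counts, the reads of a gene divided by the size factor of the sample. A gene was called higher or lower where limma, over all 15227 genes, gave a false discovery rate (FDR) below 0.1 and the difference was 4-fold or more, 2 on the log2 scale. Replicates 1 and 2 formed 1 set and replicates 3 and 4 another. Counts of 2 replicates differed by a median chi-square of 1.53 per degree of freedom within a set and of 10.3 between sets, so the sets are shown apart where they differed. The labels were checked on the *Gata6* rows, where the transgene row had no read at 0 h and 618 ± 110.4 normalized counts at 2 h (SD, n = 4). PrE markers were called higher in 8 of 8 cases at 48 h and at 96 h, and stem cell markers were called lower in 6 of 9 cases at 48 h and in 8 of 9 at 96 h. The summed level of the PrE markers per transcript length was 7.14 to 9.13 at 0 h and 4613 to 7926 at 48 h. In bulk RNA, fewer cells of a type and less RNA per cell cannot be told apart.

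The starts of *Id2*, *Id4* and *Smad6* are shown because *Id2* was called higher at 2 h, whereas *Id4* and *Smad6* were at lower values at that time. The sequences are from RefSeq (GRCm38.p6) and lie before the RefSeq start of each gene, 5′ to 3′ on the strand of the gene and outside the exons that GENCODE annotates. Capitals mark GGCGCC, a palindrome that reads the same on both strands and is known as a site for BMP-responsive SMADs.
Id2: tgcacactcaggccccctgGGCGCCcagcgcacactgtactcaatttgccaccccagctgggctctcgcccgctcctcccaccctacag
Id4: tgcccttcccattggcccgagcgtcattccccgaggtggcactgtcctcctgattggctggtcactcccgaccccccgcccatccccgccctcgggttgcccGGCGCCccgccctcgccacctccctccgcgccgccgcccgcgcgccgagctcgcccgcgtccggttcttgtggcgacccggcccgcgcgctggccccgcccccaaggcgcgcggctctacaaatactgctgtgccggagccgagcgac
Smad6: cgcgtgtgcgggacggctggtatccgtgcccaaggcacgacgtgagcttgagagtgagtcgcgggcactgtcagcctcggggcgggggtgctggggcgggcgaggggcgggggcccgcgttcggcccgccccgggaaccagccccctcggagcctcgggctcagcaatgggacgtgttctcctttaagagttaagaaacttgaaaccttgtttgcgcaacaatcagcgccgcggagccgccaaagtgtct
The *Id2* stretch of 89 bases is chr12:25096254-25096342 on the minus strand, inside the annotated gene but between its exons. The stretches of 250 bases of *Id4* (chr13:48260866-48261115, plus strand) and *Smad6* (chr9:64022060-64022309, minus strand) lie upstream. Of the 10 genes, 7 had a promoter entry, and *Bmp2*, *Bmp7* and *Id1* had none. GGCGCC occurred in the 250 bases before the start in 2 of these 7, *Id2* and *Id4*, against 9.59% of 32851 windows of the same length. The motif was thus present before a gene that was called higher at 2 h and before one that was not, and its match is a description of letters only.

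*Bmp4* had the highest ligand level per transcript length from 0 to 8 h, and *Bmp6* and *Bmp2* had the highest at 48 and 96 h. *Bmp4* and *Bmp7* were called lower and *Bmp2* and *Bmp6* were called higher at 24, 48 and 96 h, and *Bmper* joined the genes called higher from 16 h. Against 0 h, 1.31% to 10.3% of all genes were called lower and 3.40% to 9.28% higher at the time points from 8 to 96 h.

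**Figure D1:**
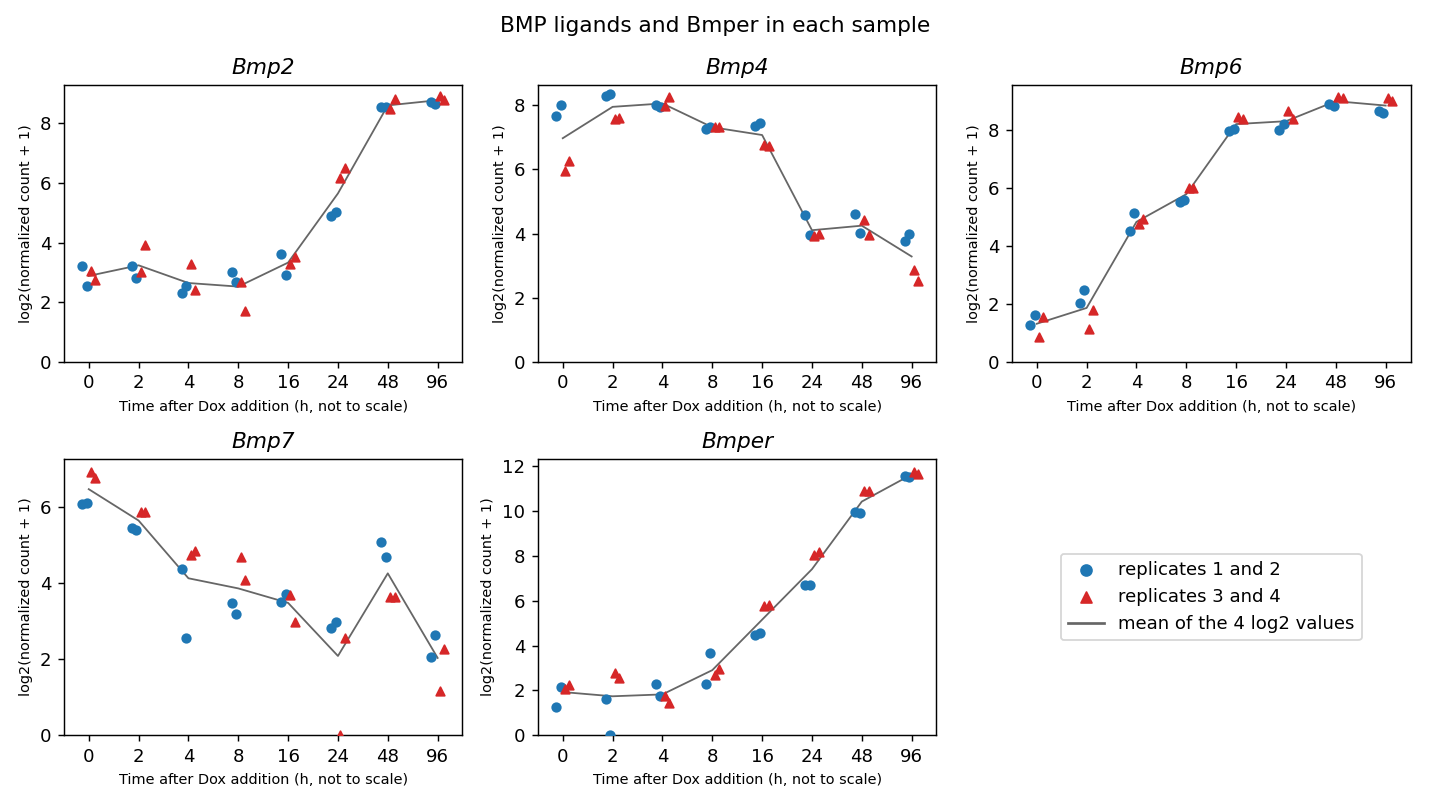
Normalized counts of the 4 ligands and *Bmper* on a log2(normalized count + 1) scale, 1 point per sample, by time after Dox addition. Circles are replicates 1 and 2, triangles replicates 3 and 4, and the line joins the means of the log2 values. *Bmp4* lies at 105 normalized counts or more at 2 to 16 h and at 23.6 or less from 24 h, while *Bmp6* climbs from 4 h and *Bmp2* from 24 h.

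*Bmp4*, the ligand with the highest mean per-length level from 0 to 8 h, is a gene of chromosome 14 (46383520 to 46390669, minus strand). At 0 h its normalized counts were 202 and 259 in replicates 1 and 2 and 61.3 and 75.5 in replicates 3 and 4. They were 314, 325, 189 and 194 at 2 h, then 259, 247, 253 and 309 (4 h) and 154, 159.8, 160.2 and 160.4 (8 h). The samples were far apart at 0 h and nearly level at 8 h. The pooled change at 2 h, 0.98 ± 0.34 in log2 units (SE, limma adjusted p = 0.021), was below the fold threshold, and it was 0.48 in replicates 1 and 2 and 1.48 in replicates 3 and 4. The counts then passed from 162, 174, 108 and 105 at 16 h to 22.8, 14.4, 14.2 and 14.7 at 24 h. The groups did not overlap, and *Bmp4* was called lower in this step (-2.97 ± 0.34, limma adjusted p = 1.3e-07). Against 0 h, the log2 fold change of *Bmp4* was -2.73 ± 0.34 at 48 h (limma adjusted p = 2.2e-08). It was -3.69 ± 0.34 at 96 h (limma adjusted p = 3.1e-11). At 48 h the value was -3.53 in replicates 1 and 2 and -1.93, which misses the fold threshold, in replicates 3 and 4.

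*Bmp4* at 0 h differed between the sets in the same direction as *T* (brachyury), a mesoderm marker and BMP and WNT target. *T* was at 422 and 421 normalized counts in replicates 1 and 2 at 0 h and at 56.4 and 39.7 in replicates 3 and 4. The summed per-length level of the 5 mesoderm markers ranged from 10.8 to 79.8 per sample at 0 h and from 4.10 to 4.73 at 48 h, and 2 of the 5 markers, *T* and *Foxf1*, passed the filter. The sum followed *T*, whereas *Foxf1* was called higher at 2, 48 and 96 h (2.62, 3.44 and 3.67 on the log2 scale), from 0.774 ± 1.14 normalized counts at 0 h to 15.9 ± 2.13 at 48 h. Whether mesoderm cells were present at 0 h, and what part they had in the *Bmp4* values, was not tested. *Gm15222*, annotated antisense to *Bmp4*, had a mean of at most 9.16 normalized counts at any time point.

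*Bmp7*, a ligand that also acts as a heterodimer with BMP2 or BMP4, lies on chromosome 2 (172868012 to 172940321, minus strand). At 0 h its normalized counts were 66.3, 67.9, 120.1 and 108 in replicates 1 to 4. At 2 h they were 42.6, 40.8, 57.4 and 57.5, below every sample at 0 h (-0.82 ± 0.52, limma adjusted p = 0.22). At 24 h they were 6.01, 6.88, 0 and 4.89, and *Bmp7* was called lower (-4.38 ± 0.52, limma adjusted p = 2.1e-08). The 0 came from the sample with the fewest reads at 24 h, and without it the value was -3.68. *Bmp7* was then at 33.0, 24.5, 11.4 and 11.4 at 48 h and at 3.18, 5.26, 1.26 and 3.78 at 96 h. It was called higher at 48 h against 24 h (2.17 ± 0.52, limma adjusted p = 0.00082) and lower at 96 h against 48 h (-2.22 ± 0.52, limma adjusted p = 0.00073), and the groups did not overlap in either step. Both calls rested on single samples for the fold threshold. Without replicate 3 at 24 h the first was 1.47, without replicate 1 at 48 h the values were 1.89 and -1.94, and without replicate 3 at 96 h the second was -1.93. At 4 h against 0 h the call (-2.34) was lost without replicate 2 at 4 h, with -1.81.

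*Bmp6*, a ligand that signals through ACVR1 and BMPR2 among others, was the first of the 4 ligands to be called higher. The gene lies on chromosome 13 (38345107 to 38500302, plus strand). Counts were 1.38, 2.04, 0.806 and 1.89 at 0 h, 6 reads in all, and 3.12, 4.53, 1.17 and 2.46 at 2 h. At 4 h they were 21.7, 33.9, 25.7 and 29.5. All 4 samples at 4 h lay above every sample at 2 h, and pooled reads were 17.6 times those at 0 h (95% exact interval 7.83 to 49.2, counting error only). Against 2 h the log2 fold change was 2.97 ± 0.22 (limma adjusted p = 3.6e-11), and *Bmp6* was the 1 gene of the 10 that was called in that step, where 0.558% of all genes were called higher and 0.230% lower. The counts rose again from 54.5 ± 9.87 at 8 h to 296 ± 51.2 at 16 h (SD, n = 4), and this step was called (2.42 ± 0.22, limma adjusted p = 2.9e-09). The last samples held 475, 456, 561 and 545 (48 h) and 399, 385, 549.8 and 513 (96 h). The last step was -0.15 on the log2 scale (95% interval -0.60 to 0.30), and no change was detectable. Pooled reads at 48 h were 342 times those at 0 h, with an interval of 157 to 933 set by the 6 reads at 0 h.

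The last 224 bases of *Bmp6* (38500079 to 38500302) overlap the end of *Txndc5* on the opposite strand, a chaperone gene of the endoplasmic reticulum. The library kit keeps strand, but whether counting used it is not given in the sources used here. *Txndc5* had 1108 ± 80.9 normalized counts at 0 h, 1078 ± 57.5 at 4 h and 4707 ± 414 at 48 h. Between 0 and 4 h, where *Bmp6* was called higher, *Txndc5* moved by less than its spread, whereas at later time points both values were higher than at 0 h. *Txndc5* had 4407 reads and *Bmp6* 6 at 0 h, and they had 17608 and 1912 at 48 h. The part of the overlap in the *Bmp6* counts was not tested.

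*Bmp2* followed later. The gene, on chromosome 2 (133552159 to 133562885, plus strand), encodes the ligand most like BMP4. It stayed between 2.28 and 14.0 normalized counts in all samples from 0 to 16 h. At 24 h the counts were 28.8 and 31.3 in replicates 1 and 2 and 71.1 and 90.5 in replicates 3 and 4, all above every earlier sample. The next samples held 377, 373, 359.8 and 449 (48 h) and 421, 405, 487 and 443 (96 h). *Bmp2* was called higher at 24 h against 16 h (2.32 ± 0.31, limma adjusted p = 2.3e-06) and at 48 h against 24 h (2.95 ± 0.31, limma adjusted p = 4.7e-09). The first step was 1.69 in replicates 1 and 2 alone, below the fold threshold, and 2.96 in replicates 3 and 4 alone. From 48 to 96 h the change was 0.17 (95% interval -0.47 to 0.82) and was not called.

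*Bmper* encodes a secreted protein that binds BMPs and can dampen or enhance their signal, and its log2 fold change at 96 h against 0 h, 9.68 ± 0.45, was the largest of the 10 genes (limma adjusted p = 4.6e-18). It lies on chromosome 9 (23223076 to 23485200, plus strand). It held 1.38, 3.40, 3.22 and 3.78 normalized counts at 0 h and 3.95, 2.42, 2.41 and 1.73 at 4 h. Values climbed through 20.9, 22.8, 53.2 and 55.2 (16 h) and 102, 101, 262 and 289 (24 h) to 979, 948, 1901 and 1902 (48 h). Replicates 3 and 4 were above replicates 1 and 2 at each of these 3 time points. At 96 h the counts were 2999, 2908, 3384 and 3212, so the sets had come closer. *Bmper* was called higher in each of the steps 16 h against 8 h (2.25 ± 0.45, limma adjusted p = 0.00068), 24 h against 16 h (2.25 ± 0.45, limma adjusted p = 0.00047) and 48 h against 24 h (3.01 ± 0.45, limma adjusted p = 2.1e-06). The last step, 96 h against 48 h, was 1.20 ± 0.45 (limma adjusted p = 0.029) and did not reach the fold threshold. Pooled reads at 96 h were 1031 times those at 0 h, with an interval of 590 to 1995 that rests on 12 reads at 0 h. Without replicate 4 at 24 h the step to 24 h was 1.98, below the fold threshold.

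On the per-length scale, which allows levels of different genes to be compared, the 4 ligands summed to 39.1 ± 14.7 at 0 h (SD, n = 4, in TPM, reads per exonic base rescaled to the same total in every sample). The sum was 58.4 ± 6.87 at 4 h and 47.2 ± 9.54 at 24 h, and it reached 105.7 ± 5.02 at 48 h, with 96.5 ± 10.2 at 96 h. *Bmp4* made up 67.0 ± 20.1% of this level at 0 h and 89.8 ± 1.33% at 4 h. *Bmp6* made up 53.6 ± 10.2% at 16 h and 77.4 ± 4.16% at 24 h. *Bmp6* and *Bmp2* held 51.5 ± 3.06% and 43.3 ± 2.83% of it at 48 h, with 47.7 ± 3.22% and 50.2 ± 2.04% at 96 h. The level order was *Bmp4*, *Bmp7*, *Bmp2*, *Bmp6* at 0 h and *Bmp6*, *Bmp2*, *Bmp4*, *Bmp7* at 48 h. The ranges of *Bmp4* and *Bmp7* overlapped at 0 h (12.0 to 49.7 and 6.62 to 13.2), as did those of *Bmp6* and *Bmp2* (50.3 to 59.0 and 41.5 to 51.7) and of *Bmp4* and *Bmp7* (2.63 to 4.41 and 1.16 to 3.46) at 48 h.

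**Figure D2:**
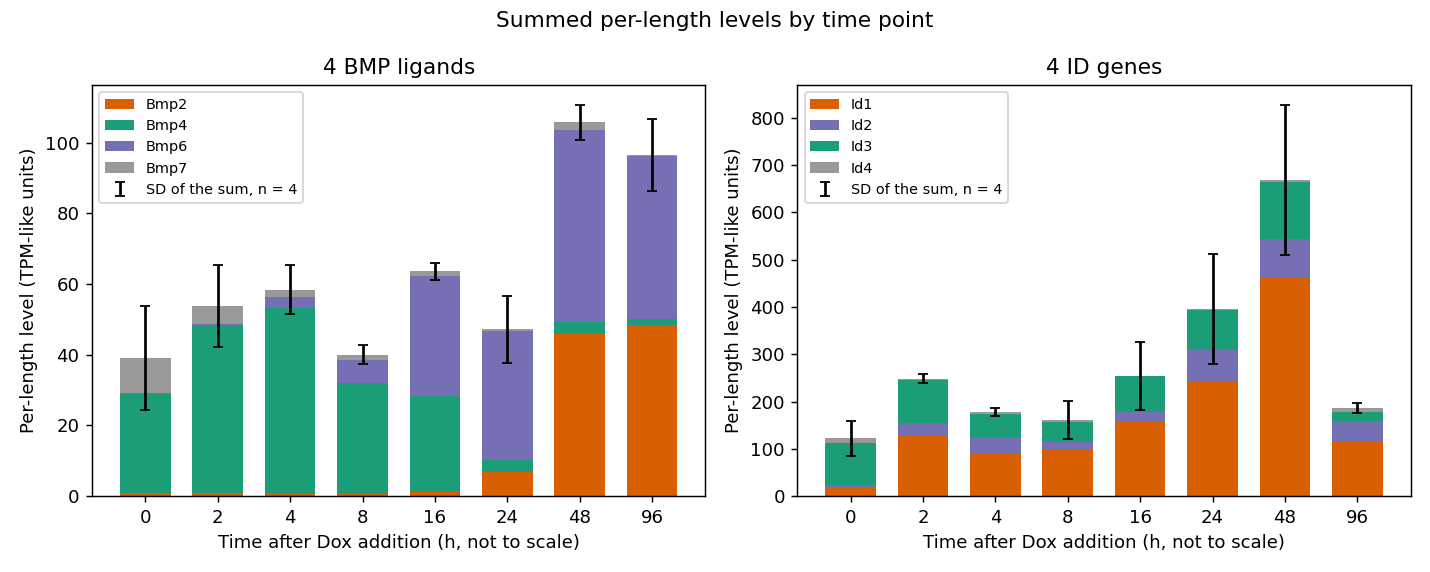
Mean per-length levels of the 4 ligands (left) and of the 4 ID genes (right), stacked by gene at each time point, in TPM. Error bars are the SD of the sum over 4 samples. The ligand sum passes from mostly *Bmp4* at 0 to 8 h to *Bmp6* and *Bmp2* at 48 and 96 h, and the ID sum peaks at 48 h at 669 ± 159 and is 187 ± 9.60 at 96 h.

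Within 2 h, *Id1* and *Id2* rose and no other of the 10 genes was called. Thus 2 of 10 were called higher and 0 lower, where 2.00% of all genes were called higher and 0.348% lower. *Id1* encodes the inhibitor most used as a BMP readout and lies on chromosome 2 (152736251 to 152737410, plus strand). Its normalized counts were 95.2, 55.0, 27.4 and 30.2 at 0 h and 436, 433, 269.6 and 268 at 2 h. Replicates 1 and 2 were higher at both time points, and the groups did not overlap. *Id1* was higher by 2.88 ± 0.30 on the log2 scale (limma adjusted p = 5.2e-09). *Id1* ranged from 212 to 262 normalized counts at 4 h and from 471 to 787 at 24 h. Its highest values were 1439.7, 1528, 1076 and 1077 at 48 h, with a mean 24.6 times that at 0 h. It was at 325, 308, 331 and 386 at 96 h, and the step from 48 h, -1.91 ± 0.30 (limma adjusted p = 4.6e-06), was just short of the fold threshold. Against 0 h *Id1* was called higher at all 7 later time points, with values from 2.34 to 4.76. At 4 h the value was 1.74, below the threshold, in replicates 1 and 2 alone.

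*Id2*, which lies on chromosome 12 (25093799 to 25097140, minus strand), encodes a second inhibitor of E proteins. The normalized counts of *Id2* were 26.2, 22.4, 34.7 and 11.3 at 0 h and 209.9, 183, 134 and 145 at 2 h. All samples at 2 h were above all at 0 h, and *Id2* was called higher (2.85 ± 0.29, limma adjusted p = 3.1e-09). At 8 h it was at 75.0 to 91.9 normalized counts, and the step from 4 h, -1.14 ± 0.29 (limma adjusted p = 0.0072), did not reach the fold threshold. The samples then held 520.1, 491, 209 and 241 (24 h), 579, 624, 357 and 342 (48 h) and 289.7, 304, 255 and 255 (96 h). Replicates 1 and 2 were above replicates 3 and 4 at each of these time points. The log2 fold change at 48 h against 0 h was 4.32 ± 0.29 (limma adjusted p = 4.2e-14). The call at 16 h (2.29) was lost without replicate 4 at 0 h, with 1.99.

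**Figure D3:**
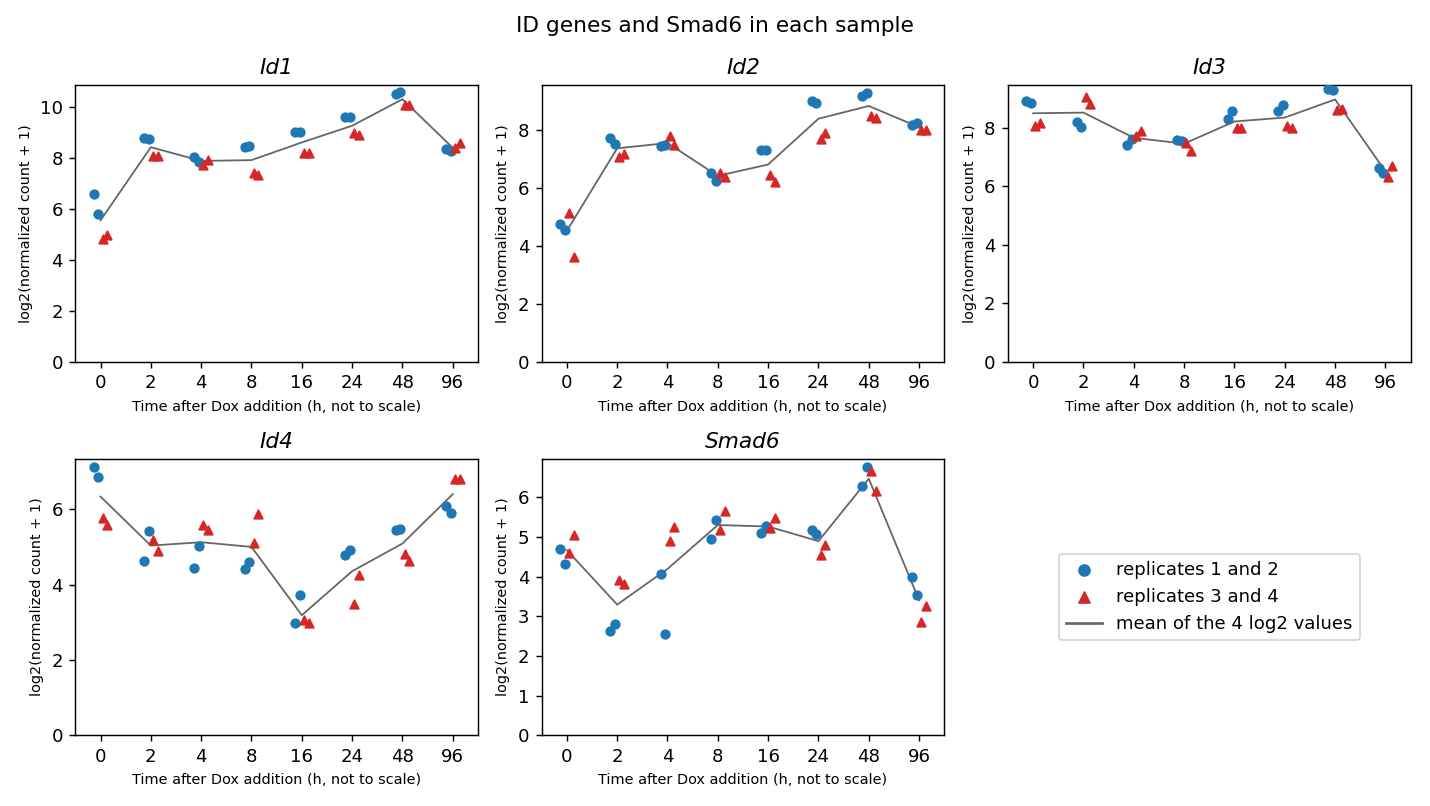
Normalized counts of the 4 ID genes and *Smad6* on a log2(normalized count + 1) scale, 1 point per sample, by time after Dox addition. Circles are replicates 1 and 2, triangles replicates 3 and 4, and the line joins the means of the log2 values. *Id1* peaks at 48 h, *Id3* shows sets on opposite sides at 0 and 2 h, *Id4* is lowest at 16 h, and *Smad6* peaks at 48 h.

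*Id3*, on chromosome 4 (136143497 to 136145755, plus strand), was the ID gene with the highest level at 0 h, 73.8 ± 4.61% of the summed per-length level of the 4. Its normalized counts were 482 and 463 in replicates 1 and 2 and 266 and 283 in replicates 3 and 4 at 0 h, and 292, 258, 524 and 454 at 2 h. Replicates 1 and 2 moved down and replicates 3 and 4 moved up. The pooled log2 fold change was 0.02 ± 0.22 (limma adjusted p = 0.95), with -0.78 in one set and 0.83 in the other, a difference of 1.61 ± 0.17. Such differences between sets (FDR below 0.1) occurred in 4 of the 10 genes at 2 h (*Bmp4*, *Id1*, *Id3* and *Id4*) and in 5.22% of all genes. In the change to 4 h they occurred in 5 of 10 and in 9.27% of all genes, in that to 48 h in 3 of 10 and in 32.6%, and in that to 96 h in 3 of 10 and in 30.7%. These 4 counts share the samples at 0 h. The sets were seen in these data, and the SE of 0.17 and this FDR rest on the small spread within sets. They do not measure how far repeats of a set would differ. *Id3* was at 170.0, 194, 210.1 and 235 normalized counts at 4 h and at 636, 631, 391 and 397 at 48 h. At 96 h it was at 96.6, 86.2, 77.8 and 102, below every sample of every other time point. *Id3* was called lower against 48 h (-2.46 ± 0.22, limma adjusted p = 2.5e-10).

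*Id4*, on chromosome 13 (48261228 to 48266026, plus strand), encodes the member of the family that is most used in neural tissue. Samples of *Id4* held 139, 115, 53.2 and 47.2 normalized counts at 0 h and 23.9, 42.3, 35.2 and 28.7 at 2 h. The groups did not overlap, and the difference, -1.30 ± 0.36 (limma adjusted p = 0.0051), was below the fold threshold and opposite in sign to *Id1* and *Id2*. *Id4* was lowest at 16 h, at 6.96, 12.2, 7.32 and 6.90, where it was called lower than at 0 h (-3.15 ± 0.36, limma adjusted p = 2.3e-08). It was at 42.4, 43.3, 27.3 and 23.7 at 48 h and at 66.8, 58.9, 110.5 and 112 at 96 h. Thus *Id4* was higher at 96 h than at 48 h, without overlap, by 1.31 ± 0.36 (limma adjusted p = 0.0037), below the fold threshold, while the other 3 ID genes had lower values. Against 0 h the change at 96 h was 0.07 pooled, -1.0 in replicates 1 and 2 and 1.13 in replicates 3 and 4. Antisense genes that overlap *Id4* had at most 2 reads over all samples.

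*Smad6*, on chromosome 9 (63953076 to 64022059, minus strand), had its own course. It was at 24.8, 19.0, 23.4 and 32.1 normalized counts at 0 h and 5.19, 6.04, 14.1 and 13.1 at 2 h. No sample at 2 h reached the lowest at 0 h, and the change of -1.37 ± 0.38 on the log2 scale (limma adjusted p = 0.0042) was below the fold threshold. The counts were 77.3, 107, 100.3 and 70.2 at 48 h and 14.9, 10.5, 6.28 and 8.51 at 96 h. *Smad6* at 48 h was above every sample of every other time point and was called higher than at 2 h (3.17 ± 0.38, limma adjusted p = 1e-08). Against 0 h the 48 h value was 1.80 ± 0.38 (limma adjusted p = 0.0001), below the fold threshold. It was called lower at 96 h against 48 h (-3.06 ± 0.38, limma adjusted p = 8.5e-08).

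In TPM, the ID genes summed to 122 ± 37.4 at 0 h and 248 ± 9.71 at 2 h. The sum was 162 ± 40.1 at 8 h, 669 ± 159 at 48 h and 187 ± 9.60 at 96 h. *Id1* passed from 14.8 ± 3.98% of it at 0 h to 50.7 ± 11.6% at 2 h and 69.6 ± 2.24% at 48 h. *Id3* passed from 73.8 ± 4.61% to 36.3 ± 13.4% and 17.8 ± 1.11%. The level order at 48 h was *Id1*, *Id3*, *Id2*, *Id4*, and the ranges of *Id3* (89.6 to 152) and *Id2* (57.4 to 110.1) overlapped.

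Time points that share the serum medium were also compared. Cells at 2 h and at 48 h still differed in the time since the medium change. They also differed in Dox, which was present at 2 h and had been withdrawn after 12 h in the cells at 48 h. The parts of these differences cannot be told apart. At 48 h against 2 h, 4 of the 10 genes were called higher (*Bmp2*, *Bmp6*, *Bmper* and *Smad6*) and 1 lower (*Bmp4*, -3.71 ± 0.34, limma adjusted p = 3.8e-11), where 8.50% of all genes were called higher and 7.65% lower. *Id1* and *Id2* were at 1.88 ± 0.30 (limma adjusted p = 1.8e-06) and 1.46 ± 0.29 (limma adjusted p = 4.6e-05), both below the fold threshold. *Bmp7*, called lower at 48 h against 0 h, was not called here (-1.39 ± 0.52, limma adjusted p = 0.018), with -0.54 in replicates 1 and 2 and -2.24 in replicates 3 and 4. *Id4* was at 0.05 (95% interval -0.70 to 0.80).

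Step by step from 2 to 48 h, the calls fell on ligands and on *Bmper*. None of the 10 genes was called between 4 and 8 h, where 0.565% of all genes were called higher and 0.250% lower. From 8 to 16 h *Bmp6* and *Bmper* were called higher, 2 of 10 against 0.499% of all genes (0.539% were called lower). From 16 to 24 h *Bmp2* and *Bmper* were called higher and *Bmp4* lower, against 0.525% and 0.729% of all genes. From 24 to 48 h *Bmp2*, *Bmp7* and *Bmper* were called higher, 3 of 10 against 2.51% (1.41% were called lower).

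Between 48 and 96 h *Bmp7*, *Id3* and *Smad6* were called lower and none was called higher, where 1.30% of all genes were called higher and 2.40% lower. *Id1* (lower) was just short of the fold threshold, *Bmp4* (-0.96, limma adjusted p = 0.019) and *Id4* (1.31) were further from it, and *Bmp2* and *Bmp6*, which made up most of the ligand level, had intervals that included 0. The summed per-length level of the visceral endoderm markers was 227 to 357 at 48 h and 128 to 156 at 96 h, and that of the parietal endoderm markers was 7745 to 11156 and 13429 to 16256. The visceral markers did not move together. From 48 to 96 h *Amn* passed from 929 ± 287 to 462 ± 68.4 normalized counts and *Hnf4a* from 800 ± 47.3 to 335 ± 24.5. *Ttr* moved the other way, from 22.5 ± 5.84 to 52.6 ± 6.16, and the means of *Afp* and *Apoa1* were at most 4.15. Of the visceral markers 3 of 5 and of the parietal markers 5 of 5 passed the filter, and all of these were called higher than at 0 h at both time points. The 3 visceral markers had mean normalized counts of 0 (*Ttr*), 1.25 (*Amn*) and 6.60 (*Hnf4a*) at 0 h. They could pass the filter only through later time points, so their calls are not independent of it. The same holds for *Thbd*, *Plat*, *Hand1* and *Foxf1*, with means of 3.86, 7.10, 0.170 and 0.774 at 0 h. Of the other lists, trophoblast markers were called higher in 2 of 4 cases at 48 h (*Krt7* and *Hand1*) with a summed level of 24.5 to 66.3 against 40.6 to 67.1 at 0 h, mesoderm markers in 1 of 2 (*Foxf1*), fibroblast markers in 0 of 2 and neural markers in 0 of 2. Over all genes 8.48% were called higher at 48 h. *Krt7* was at 4.95 in replicates 1 and 2 and at 0.94, below the fold threshold, in replicates 3 and 4. *Cdx2* (0.64) and *Tfap2c* (-1.17) did not reach the fold threshold. Of the mesoderm markers *T* was called lower, as was 1 of 2 neural markers. The parts of these cell types in the changes of the 10 genes were not tested.

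**Figure D4:**
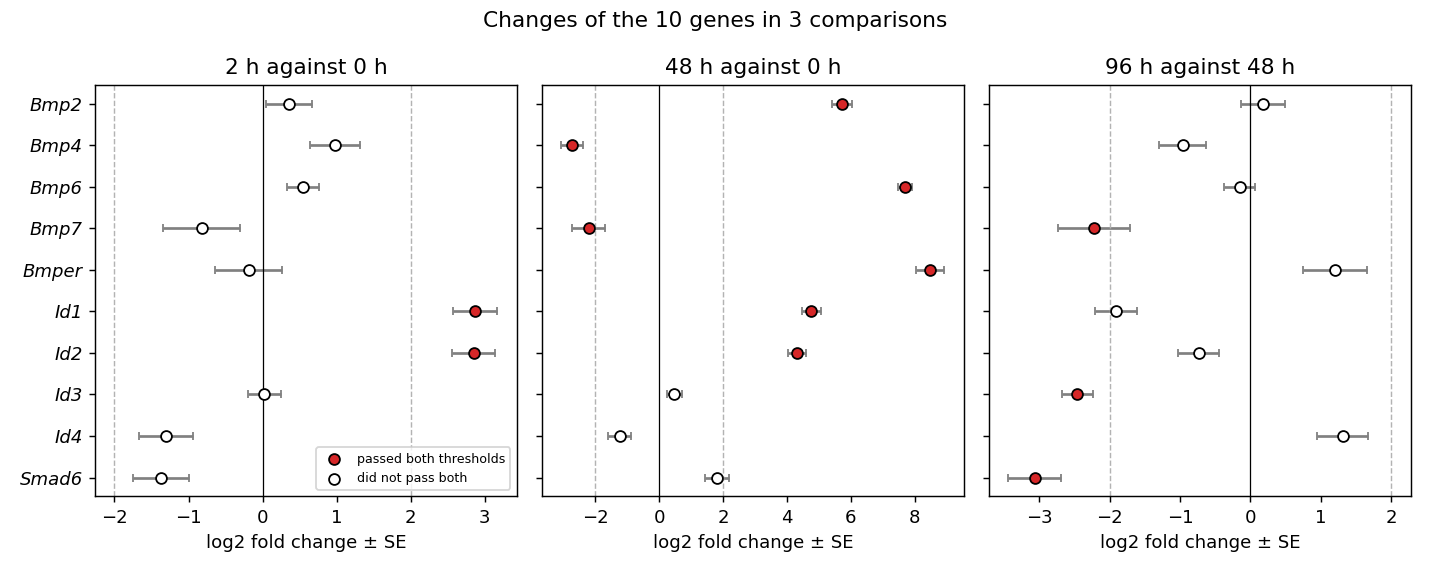
Log2 fold changes of the 10 genes with their SE at 2 h against 0 h, 48 h against 0 h and 96 h against 48 h, each on its own horizontal scale. Filled points passed both thresholds, and dashed lines mark a log2 fold change of 2 in either direction. *Id1* and *Id2* are filled at 2 h, 7 of 10 genes are filled at 48 h, and *Bmp7*, *Id3* and *Smad6* are filled on the lower side at 96 h against 48 h.

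Against 0 h, the 10 genes were called in the following numbers. At 4 h, 3 were higher and 1 lower (2.69% and 0.709% of all genes). At 8 h, 2 were higher and 1 lower (3.40% and 1.31%). At 16 h, 4 were higher and 2 lower (4.03% and 2.40%), and at 24 h, 5 were higher and 2 lower (4.85% and 4.34%). For 48 h (8.48% and 7.09% of all genes) and for 96 h (9.28% and 10.3%), 5 were again higher, *Bmp2*, *Bmp6*, *Bmper*, *Id1* and *Id2*, and 2 lower, *Bmp4* and *Bmp7*. The median log2 fold change of the 10 genes was 3.06 at 48 h and 1.46 at 96 h, and that of all genes was -0.02 and -0.03.

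The other genes of the pathway give the setting in which these changes stood. Of 63 listed genes, 44 passed the filter. Against 0 h, 4 of these 44 were called higher and 1 lower after 2 h (9.09% and 2.27%). After 48 h, 8 were higher and 1 lower (18.2% and 2.27%), and after 96 h, 10 and 3 (22.7% and 6.82%). Over all genes the shares were 2.00% and 0.348%, 8.48% and 7.09%, and 9.28% and 10.3%. The lower calls at 48 and 96 h rest on 1 and 3 genes, and whether their shares differ from those of all genes was not tested. These shares of all genes also apply to the counts per list below. Among other BMP-type ligands 4 of 10 passed the filter. *Gdf6* had 1 read at 0 h, and its pooled reads at 96 h were 66.7 times as many (exact interval 11.5 to 2675). *Bmp8b* was at 2.30 ± 0.825 normalized counts at 0 h and at 23.6 ± 6.28 at 48 h (log2 fold change 2.90 ± 0.29, limma adjusted p = 3.4e-10).

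Of 9 measured receptors and co-receptors, 1 was called lower at 2 h, none was called at 48 h, and 2 were called higher and 1 lower at 96 h. The 2 called higher were the type I receptor *Acvr1*, from 75.2 ± 17.0 normalized counts at 0 h to 386 ± 95.1 at 96 h (2.34 ± 0.23, limma adjusted p = 1.5e-10), and the type II receptor *Bmpr2*, from 165 ± 42.5 to 797 ± 90.0 (2.29 ± 0.15, limma adjusted p = 7.9e-15). The co-receptor *Rgma* was called lower at 2 h, from 76.0 ± 36.5 to 11.8 ± 6.41 (-2.60 ± 0.35, limma adjusted p = 5.5e-07), and again at 96 h. Of the 4 SMAD transducers only *Smad9* was called at these time points, at 96 h, from 11.9 ± 0.848 to 1.00 ± 0.775 normalized counts, the latter from 4 reads in all.

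Among 7 intracellular and membrane inhibitors, the repressor *Skil* was called higher at 2 h, from 208 ± 25.8 to 1316 ± 113 normalized counts (2.66 ± 0.13, limma adjusted p = 2.1e-16), and none was called at 48 or 96 h. Extracellular antagonists and modulators held 12 measured genes, of which 4 were called higher and 1 lower at both 48 and 96 h. *Bmp1*, a protease that cuts the antagonist chordin and collagens, was at 13.5 ± 7.97 normalized counts at 0 h, 113 ± 43.7 at 2 h and 338 ± 111 at 48 h. *Tll1*, a protease of the same family, had 98 reads at 0 h and none at 48 h, and the exact interval of the ratio of pooled reads had an upper limit of 0.0411. *Crim1*, a membrane protein that binds BMPs, passed from 94.6 ± 28.6 at 48 h to 1309.7 ± 192 at 96 h. *Nog*, which encodes the BMP antagonist noggin, passed from 3 reads at 0 h and 31 at 48 h to 841 at 96 h, and its pooled level at 96 h was 297 times that at 0 h (exact interval 101 to 1442). Both *Nog* (4.65 ± 0.45, limma adjusted p = 1.1e-09) and *Crim1* (3.82 ± 0.24, limma adjusted p = 1.2e-13) were called higher at 96 h against 48 h. In that step 1.30% of all genes were called higher and 2.40% lower. *Bmp7*, *Id3* and *Smad6* were called lower in it, whereas *Id4* was at 1.31. A link between these changes was not tested.

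Other BMP targets moved like *Id1* only in part. Of 5 measured genes, *Msx1* (3.95 ± 2.44 to 23.9 ± 6.62 normalized counts) and *Gata3* (1.36 ± 1.21 to 12.3 ± 2.86) were called higher at 2 h. *Gata3* and *Msx2* were called higher at 48 and 96 h, *Msx1* was called higher again at 96 h, and *Msx2* was at 243 ± 31.2 at 48 h and 248 ± 40.4 at 96 h against 13.1 ± 5.18 at 0 h. Its means at 48 and 96 h lay within 1 SD of each other, whereas those of *Id1*, *Id3* and *Smad6* did not. Of the 3 E proteins, the partners of ID proteins, none was called at 2, 48 or 96 h. Median log2 fold changes of the lists at 48 h ranged from -0.17 for the E proteins to 1.71 for other ligands, against -0.02 for all genes.

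**Figure D5:**
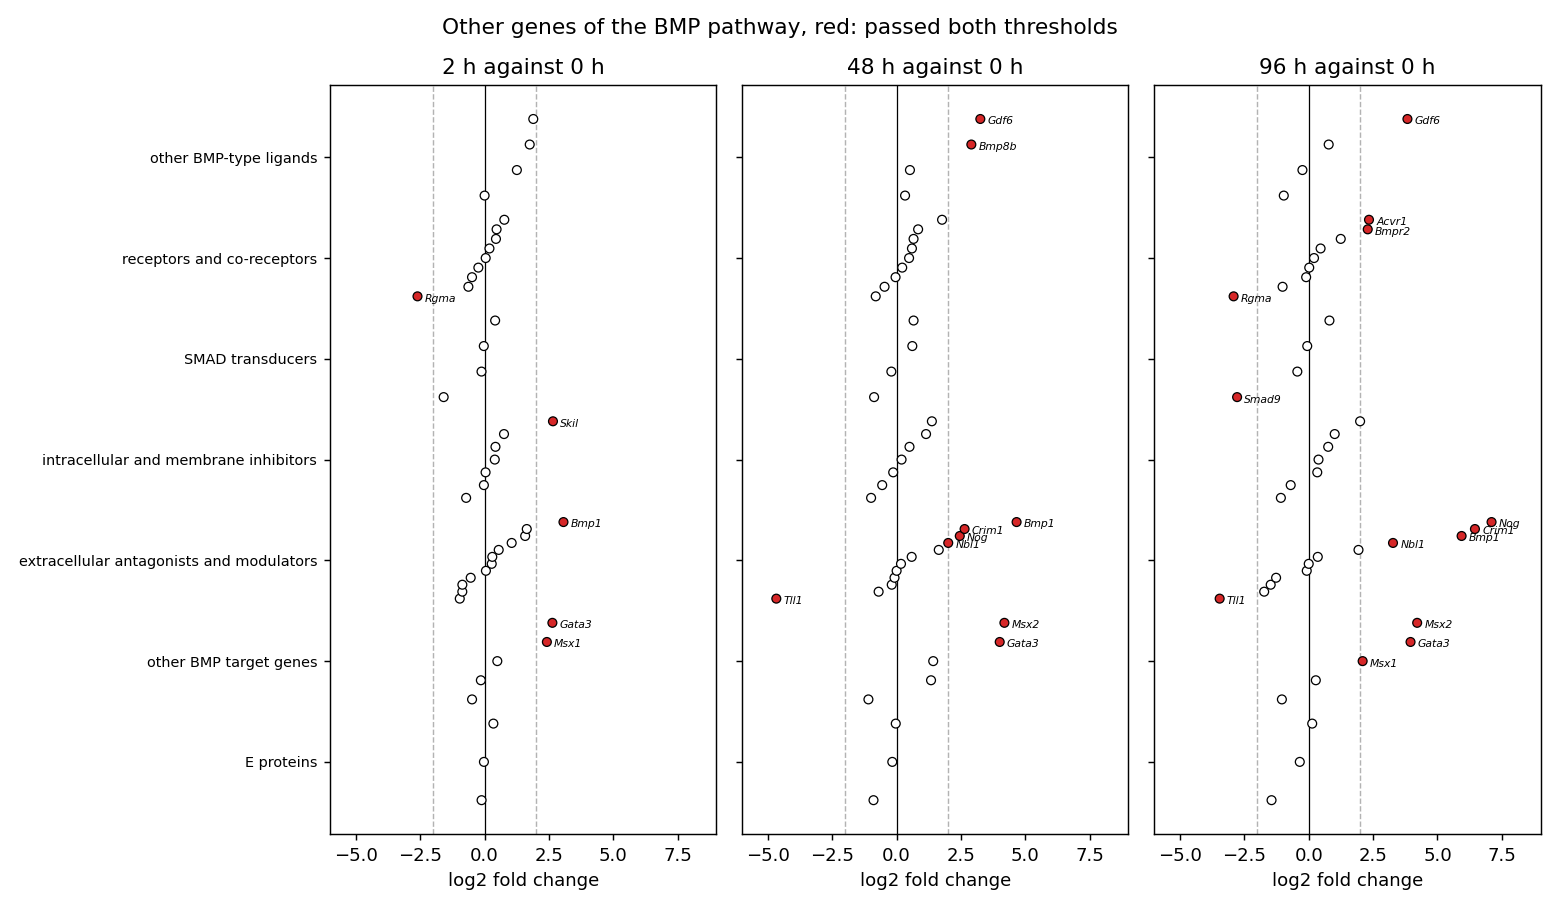
Log2 fold changes of the 44 measured other genes of the BMP pathway, 1 point per gene, by list and comparison. Red points with a name passed both thresholds, and dashed lines mark a log2 fold change of 2 in either direction. At 96 h the red points on the higher side include *Nog* and *Crim1*, at 7.10 and 6.45.

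The genes whose time course was most like that of each gene were sought among 9957 genes, by Pearson's r over the 8 time point means of log2(normalized count + 1). They were *Serping1* and *Nudt4* for *Bmp2*, *Rapgef3* and *Pisd* for *Bmp4*, *Stard8* and *1010001N08Rik* for *Bmp6*, *Alkbh6* and *Rps14* for *Bmp7*, and *Gpx3* and *Txndc5* for *Bmper*. For the targets they were *Pik3ca* and *Dnajc13* for *Id1*, *Depdc1a* and *Rnf19a* for *Id2*, *Dmd* and *Igf2bp3* for *Id3*, *Bpgm* and *Elmo2* for *Id4*, and *Tmco6* and *Pced1b* for *Smad6*. The highest r was 0.999 for *Gpx3* with *Bmper* and the lowest 0.930 for *Elmo2* with *Id4*. With 8 points that share their libraries and 9957 candidates, such values are a description of shape, and r ignores the size of the change. The choice also depended on the scale. On counts without the log, *Serping1* stayed first for *Bmp2* and *Elmo2* was first for *Id4*, but *Txndc5* ranked 945 for *Bmper*, *Nudt4* 469 for *Bmp2*, *1010001N08Rik* 411 for *Bmp6* and *Pik3ca* 387 for *Id1*.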

How the data were processed

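RNA-seq of 32 samples was analysed. RNA was isolated with Trizol, and libraries were made with the TruSeq Stranded mRNA kit. Per the submitters' processing notes, cutadapt 2.7 was used for trimming, HISAT2 2.1.0 for alignment (GRCm38.p6) and featureCounts (Subread 1.6.4) for counting. The authors deposited variance-stabilized log2 values from DESeq2, 1 column per sample. Here the transformation was inverted, which gave whole reads for 100% of values (tolerance 0.01). Depth is given in the report. The 95% intervals of pooled read ratios are exact binomial ones and cover counting error alone, as PCR duplicates could not be seen. Those of log2 fold changes use the limma SE and the residual degrees of freedom.

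The main test was one for log2 values, the unit as deposited, with limma-voom run on the whole reads as another setting. Genes that reached 10 normalized counts in 4 samples were tested with limma 3.58.1 (R 4.3.3; lmFit, contrasts, eBayes with trend) on log2(normalized count + 1) over all 32 samples. Benjamini-Hochberg adjustment was per comparison, two-sided, and folds of low genes are understated on this scale. The procedure was tested on simulated data with large changes in genes that were not low. The simulated samples held no replicate sets, so this test does not bear on how such sets affect the FDR. Per-length levels (TPM) are reads per exonic base (GENCODE M21), rescaled to the same total per sample. Coordinates are from GENCODE M21 on GRCm38.

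Named pathway genes are up to 2 called genes with the largest rise and 2 with the largest fall per list at 2, 48 and 96 h. The members and lists were chosen with earlier results of these data known, and the replicate sets were seen in the data. *T*, *Foxf1*, *Krt7*, *Hand1*, *Cdx2* and *Tfap2c* were named from the marker lists after their values were seen, and *Nog*, *Crim1* and *Skil* follow the rule. Alternatives covered the pseudocount, filter, scaling, replicate block, samples in the fit, replicate sets, limma-voom, the deposited values without inversion and leaving out each sample. Other assays of the study were not analysed here.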

Additional observations from a re-analysis of the deposited data

Results flagged for a closer look

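In groups of 4, single samples that stood apart by Dixon's ratio on the log2 scale (above its 95% critical value) were found in 5 of 80 groups, where chance gives about 4. *Bmp4* replicate 1 was at 154 normalized counts at 8 h, under the other 3 by a small margin, and at 22.8 at 24 h, above the other 3. *Bmp7* replicate 3 at 24 h was at 0. *Id2* replicate 3 at 4 h was at 222, above the others. *Id4* replicate 2 at 16 h was at 12.2, above the others. The *Bmp7* value bears on the calls at 24 h and at 48 h against 24 h, which are given with and without it in the report.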

How the results depend on the processing

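Over the 10 genes, 26 calls higher and 10 lower were made against 0 h, 10 and 4 against the preceding time point, and 4 and 1 at 48 h against 2 h. The other pathway genes gave 45 and 11 against 0 h. A fit with a replicate block gave 26 and 10, 10 and 4, 4 and 1, and 45 and 11. The numbers did not pair the samples within a set, since same-numbered samples correlated on average by 0.196 in their deviations, no more than with the other number of their set. Samples of different sets correlated on average by -0.196, so the sets held across time points. The main fit had no term for the sets and took the 4 samples of a time point as independent. Leaving out single samples gave 25 to 27 and 9 to 12 against 0 h, 9 to 10 and 3 to 5 against the preceding time point, 4 and 1 at 48 h against 2 h, and 44 to 47 and 10 to 13 for the pathway genes.

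A filter at a mean of 50 normalized counts, which tests fewer genes, left 3 lower calls against 0 h, 2 lower calls against the preceding time point, and 19 higher and 0 lower pathway calls. A pseudocount of 5 left 28 higher and 5 lower pathway calls, and the deposited scale without inversion left 5 lower ones. Under each of these, *Bmp2* at 24 h against 16 h (1.96 and 1.94), *Bmper* at 16 h against 8 h (1.78 and 1.78), *Bmp7* at 48 h against 0 h (-1.98 and -1.96), at 48 h against 24 h (1.39 and 1.59) and at 96 h against 48 h (-1.51 and -1.58) no longer reached the fold threshold. Calls of genes with few reads at 0 h held with smaller values, such as *Bmp6* at 4 h with 2.31 and 2.47 in place of 3.52. Replicates 3 and 4 alone gave 2 lower calls at 48 h against 2 h. Signs reversed past the FDR only in fits of 1 set, and the cause was not tested. In replicates 1 and 2, *Bmp4* was at -0.54 (8 h) and -0.44 (16 h) against 0 h, *Id3* at -0.78 (2 h) and *Id4* at -1.0 (96 h). In replicates 3 and 4, *Bmper* was at 0.51 at 2 h against 0 h and -1.06 at 4 h against 2 h, *Id1* at -0.45 at 8 h against 4 h, and *Id3* at -0.31 at 48 h against 2 h. *Bmp7* at 48 h against 0 h was -1.21 in replicates 1 and 2, *Bmper* at 16 h against 8 h was 1.53 there, and *Id2* at 16 h against 0 h was 1.94 in replicates 3 and 4, all below the fold threshold. With the sets averaged, 23 of 140 single-gene results no longer passed the FDR. Scaling by total reads moved the median of all genes at 48 h against 0 h to -0.16, and no result of the 10 genes reversed past the FDR under it. Depth limits *Bmp6*, *Bmper* and *Nog* at 0 h, where few reads set the size of each fold.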
